A study of Mus musculus with 12 samples.

Results

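The genes described here are the 450 named genes of mouse chromosome 14 that were measurable on these arrays, out of 698 chromosome 14 genes with a name on the array and 12988 measurable named genes in all. A gene was kept when its log2 value lay above the 40th percentile of the named genes on 2 or more of the 12 arrays, a level between 4.46 and 4.63 depending on the array. The other 248 chromosome 14 genes did not reach it on 2 arrays. The closest genes inside that limit were Il17rb, Lrtm1 and Itih1, which cleared it by 0.001, 0.012 and 0.02 log2 units, and the closest outside included Dnah1, which missed it by 0.013. Of the 450 genes, 430 encode proteins and 9 encode microRNAs. The chromosome was selected on measured values, namely the difference of each array from the scrambled arrays of the same state. Shifts and counts in the knockdown comparisons are therefore a description of these arrays and are not tested as a set, and p-values below belong to single genes in a fit over all genes.

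All cells were R1 cells, a line of mouse embryonic stem cells (ESCs), grown on mitomycin-treated mouse embryonic fibroblasts in medium with serum and leukemia inhibitory factor (LIF). Undifferentiated ESCs carried a scrambled control infection (2 arrays), a Smarcd1 knockdown called KD1 (2 arrays) or a Smarcd1 knockdown called KD2 (2 arrays). For 4 days of differentiation LIF was left out and 1 µM retinoic acid (RA) was added, with scrambled cells (2 arrays) and KD1 cells (4 arrays). KD2 cells after RA were not analysed here. The labels speak of knockdown and control clones and call the replicates biological, without saying how cultures were kept apart, so that p-values measure only the spread between these arrays.

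Smarcd1 encodes BAF60a, a subunit of the BAF chromatin remodelling complexes. Cultured mouse ESCs can gain or lose whole chromosomes, and the RNA of most genes on such a chromosome then moves with the number of copies. Chromosome 14 carries genes with well known roles in early development, among them Gata4 and Sox7 (endoderm transcription factors), Otx2 (epiblast and head development), Bmp4 (a secreted growth factor) and Rarb (a retinoic acid receptor). RNA was measured in these cells, DNA copy number was not, and any part of copy number in the values below was not tested. In such bulk RNA, more cells with a change and a greater change per cell cannot be told apart.

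Smarcd1 itself checks the labels. It read 8.67 and 8.68 (log2) on the scrambled ESC arrays, 7.75 and 7.78 on the KD1 arrays, and 8.56 and 7.16 on the KD2 arrays. In Smarcd1 the library labelled KD2 replicate 1 thus lay close to the scrambled arrays and goes against its label. KD2 replicate 2 was the lowest of the ESC arrays. In other values KD2 replicate 1 lay with KD2 replicate 2 and apart from the scrambled arrays. Kcnma1 read 7.37 and 9.14 on KD2 replicates 1 and 2 against 2.88 and 3.09 on the scrambled arrays. The median difference of chromosome 8 genes was -0.321 and -0.214 against -0.01 and 0.01. Below, KD2 replicate 1 stands for the library so labelled. In limma, Smarcd1 was called in neither ESC knockdown. It differed from scrambled cells by -0.91 ± 0.33 (SE, limma adjusted p = 0.230) in KD1 and by -0.81 ± 0.33 (limma adjusted p = 0.152) in KD2. After RA, Smarcd1 read 8.84 and 8.64 on the scrambled arrays and 6.36, 6.61, 6.50 and 6.44 on the KD1 arrays (fell by 2.26 ± 0.28 (SE), limma adjusted p = 0.000152). KD2 replicate 1 also had a narrower scale than the other arrays: relative to the array's own all-gene median, the median of all genes was 0.179 at the lowest of 3 ranges of level and -0.193 at the highest. The all-gene median of that array lay 0.133 below the scrambled mean and that of KD2 replicate 2 lay 0.079 above it, and every shift below is given relative to the array's own all-gene median. Of the markers of the fibroblast feeder layer, 12 of 15 were tested. They averaged 7.34 and 7.55 on the scrambled ESC arrays and 6.21 to 7.14 on the ESC knockdown arrays. After RA they averaged 7.80 and 8.38 on the scrambled arrays and 6.76 to 7.29 on the KD1 arrays. Every knockdown array thus lay below both scrambled arrays of its state. The 8 pluripotency markers averaged 10.75 and 10.50 on the scrambled ESC arrays and 10.96 to 11.29 on the ESC knockdown arrays. They averaged 6.66 and 6.79 on the RA scrambled arrays and 5.88, 6.12, 7.05 and 6.77 on RA KD1 replicates 1 to 4, where replicates 3 and 4, which carry the shift described next, were the higher. After RA, 11 tested extraembryonic endoderm markers averaged 7.98 and 8.05 on the scrambled arrays and 10.21 to 10.60 on the KD1 arrays. The part of any of these in the chromosome 14 values was not tested. The identity of the RA arrays labelled KD1 replicates 3 and 4 is in doubt, because they carry the chromosome 14 shift and the high Kcnma1 of the ESC KD2 arrays and RA KD1 replicates 1 and 2 do not. Smarcd1 does not separate the 4 arrays. Over 12538 genes outside chromosome 14, the differences of replicates 3 and 4 correlated at r = 0.244 to 0.283 with those of the ESC KD1 arrays. With the ESC KD2 arrays they correlated at 0.099 to 0.151. For replicates 1 and 2 the ranges were 0.243 to 0.302 and 0.102 to 0.123. No array labelled KD2 after RA was analysed here, the identity was not tested, and the labels were kept. Pooled RA KD1 values below therefore mix arrays of uncertain kind.

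A chromosome-wide shift was present on 4 of the 12 arrays. The median chromosome 14 gene read 0.340 log2 units above the all-gene median on KD2 replicate 1 and 0.282 on KD2 replicate 2, which are 1.27-fold and 1.22-fold. On the RA KD1 arrays the same median was 0.048, 0.025, 0.362 and 0.356 for replicates 1 to 4. KD2 and the RA arrays labelled KD1 replicates 3 and 4 were thus high, whereas RA KD1 replicates 1 and 2 lay near 0. On the ESC KD1 arrays it was -0.014 and 0.020, and the RA scrambled arrays lay 0.019 to either side of their mean. As group values, the shift was 0.003 ± 0.024 (SD, n = 2) in ESC KD1, 0.311 ± 0.041 (SD, n = 2) in ESC KD2 and 0.198 ± 0.186 (SD, n = 4) in RA KD1, where it was 0.037 without replicates 3 and 4, an exclusion chosen after seeing the data.

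**Figure D1:**
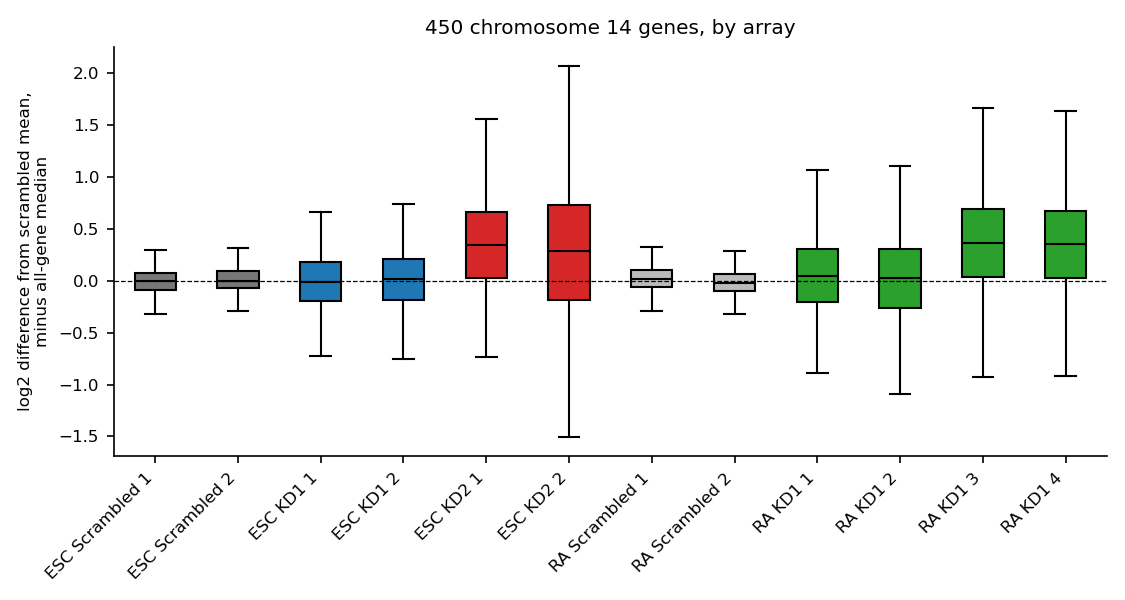
Differences of the 450 chromosome 14 genes from the scrambled mean of the same state, minus the all-gene median, on each of the 12 arrays (vertical axis, log2 units). Lines are medians, boxes span the quartiles and whiskers reach the farthest gene within 1.5 box lengths; genes beyond are not drawn. The medians of both ESC KD2 arrays and of RA KD1 replicates 3 and 4 lie between 0.282 and 0.362, and those of the other 8 arrays between -0.019 and 0.048.

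The shift was spread over many genes. On KD2 replicate 1, 348 of the 450 genes lay above the array's all-gene median, and on KD2 replicate 2, 302 did. The count was 248, 232, 347 and 343 on RA KD1 replicates 1 to 4 and 218 and 233 on the ESC KD1 arrays. The quartiles ran from 0.029 to 0.656 on KD2 replicate 1 and from -0.183 to 0.728 on KD2 replicate 2, so that the second array was more variable at a similar median. On RA KD1 replicates 3 and 4 the quartiles were 0.031 and 0.692, and 0.022 and 0.671. Genes more than 1 log2 unit up numbered 38 and 62 on KD2 replicates 1 and 2 (2.93% and 3.13% of all genes tested). They numbered 15, 20, 57 and 52 in RA KD1 cells (4.34%, 5.31%, 6.0% and 5.34% of all genes), and 6 and 3 in ESC KD1 (1.24% and 0.739%). Those more than 1 unit down numbered 6 and 14 in KD2 (4.80% and 8.08% of all genes). In RA KD1 cells they numbered 25, 29, 20 and 16 (4.32%, 5.07%, 5.47% and 4.45%), and outnumbered those up on RA KD1 replicates 1 and 2.

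Among the 19 autosomes, chromosome 14 had the highest median on both KD2 arrays and on RA KD1 replicates 3 and 4. It also ranked first on RA KD1 replicate 1, at 0.048 against 0.036 for chromosome 7. Chromosome 1 came next on 3 of the high arrays, at 0.181 on KD2 replicate 1, 0.188 on RA KD1 replicate 3 and 0.231 on RA KD1 replicate 4. It read 0.044 on KD2 replicate 2 and at most 0.015 on the other knockdown arrays. Chromosome 8 behaved differently, with medians between -0.330 and -0.214 on all 8 knockdown arrays, including the 4 on which chromosome 14 lay near 0. Outside the autosomes, the X chromosome read -0.238 and -0.150 on the KD2 arrays and -0.096 to 0.045 on the other knockdown arrays. The 4 tested Y genes had medians from -3.10 to -1.85 on all 8 knockdown arrays. Both the chromosome 8 and the chromosome 14 values share the scrambled arrays as their reference.

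**Figure D2:**
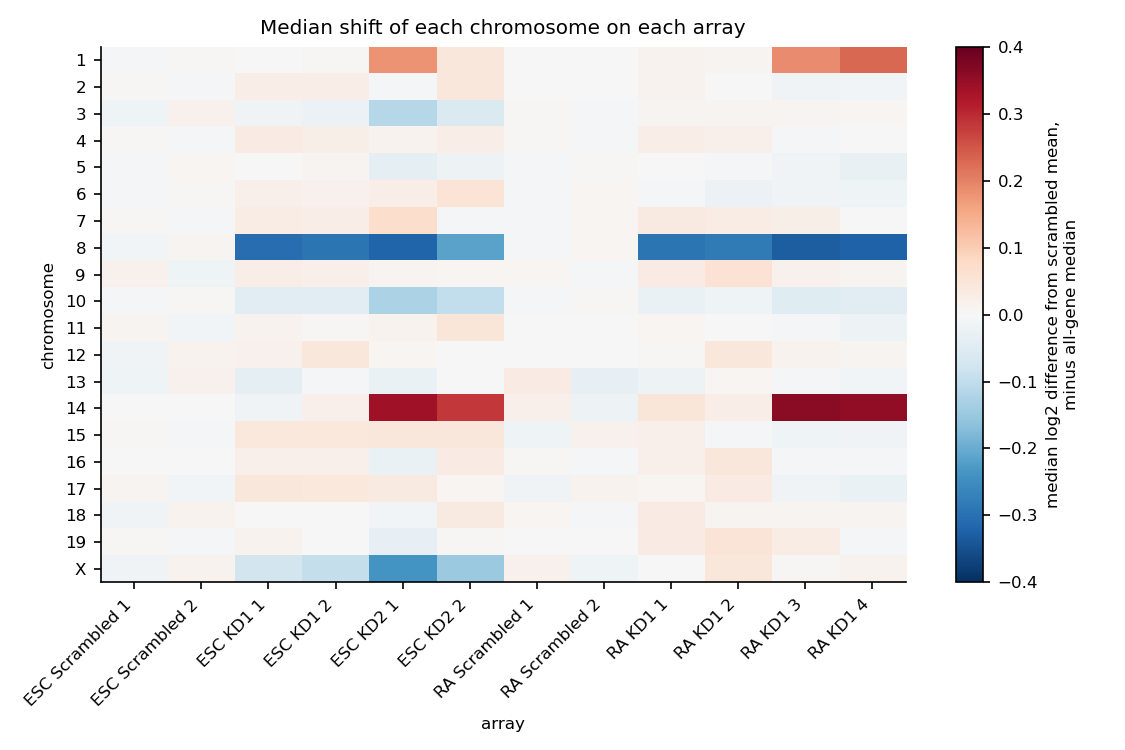
Median difference from the scrambled mean of the same state, minus the all-gene median, for each autosome and the X chromosome (rows) on each array (columns), in log2 units by colour. The Y chromosome is not drawn. Chromosome 14 is raised on 4 arrays, chromosome 1 on 3 of these and chromosome 8 is lowered on all 8 knockdown arrays.

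Along the chromosome the shift was present over almost its whole length. In 10 consecutive segments of 45 genes each, the segment median was above 0 in 10 of 10 on KD2 replicate 1 (0.126 to 0.449), on RA KD1 replicate 3 (0.158 to 0.503) and on RA KD1 replicate 4 (0.165 to 0.414). On these arrays the lowest segment was the same, the fifth, which runs from Snord8 to Psme1. KD2 replicate 2 had 9 of 10 segments above 0, the highest (0.581) from Emc9 to Cab39l and the lowest (-0.198) at the end of the chromosome, from Lmo7 to Fgf14. A running median over 31 genes stayed above 0 in all 420 windows on KD2 replicate 1 and on RA KD1 replicates 3 and 4, with the smallest at 0.115, 0.001 and 0.019. On KD2 replicate 2 it did so in 398 windows and reached -0.373 around Uggt2. On the ESC KD1 arrays 201 and 219 windows lay above 0, and on RA KD1 replicates 1 and 2 it was 277 and 200. The order of genes comes from the RefSeq annotation of mouse assembly GRCm38.p6.

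**Figure D3:**
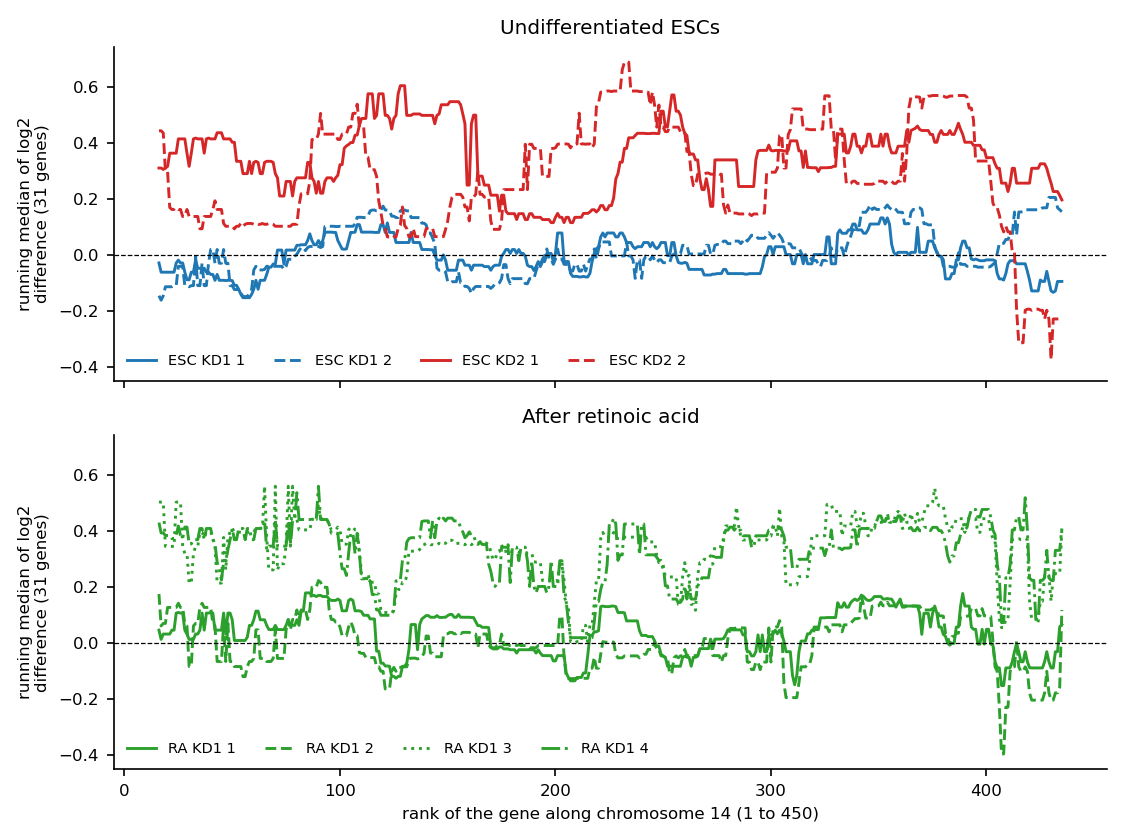
Running median over 31 neighbouring genes of the log2 difference from the scrambled mean, minus the all-gene median, against the rank of the gene along chromosome 14, for the 4 ESC knockdown arrays (top) and the 4 RA KD1 arrays (bottom). KD2 replicate 1 and RA KD1 replicates 3 and 4 stay above 0 in 420 of 420 windows, and KD2 replicate 2 falls below 0 near the end of the chromosome.

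The last segment holds the microRNA cluster of Mir17hg, the host transcript of the miR-17, miR-18, miR-19 and miR-20 hairpins, which are known to promote cell division. With the protein-coding genes alone, 38 of its 45, the median of the last segment on KD2 replicate 2 was 0.066 in place of -0.198. The probe sets read hairpin or host RNA, and the mature forms they give rise to are shown here because their shared seeds (bases 2 to 8, in capitals) divide the cluster into families. The sequences are those of RefSeq (GRCm38.p6, 5 of 5 cluster hairpins matched).
mmu-miR-17-5p: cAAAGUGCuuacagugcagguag
mmu-miR-20a-5p: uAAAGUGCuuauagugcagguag
mmu-miR-18a-5p: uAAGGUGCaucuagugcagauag
mmu-miR-19a-3p: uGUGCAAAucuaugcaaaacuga
mmu-miR-19b-3p: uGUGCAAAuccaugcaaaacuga
The miR-17 and miR-20a forms share the seed AAAGUGC, the miR-19a and miR-19b forms share GUGCAAA, and miR-18a has AAGGUGC. Mir17hg and the microRNAs were singled out after their values were seen.

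Mir17hg was the 1 chromosome 14 gene called lower in KD2 ESCs, among 108 with a difference below 0. At an unadjusted p under 0.05 in limma, 12 were lower and 126 higher. Mir17hg read 8.20 and 8.08 on the scrambled arrays, 7.93 and 8.14 in KD1, and 7.30 and 6.49 in KD2 (log2). It was lower on both KD2 arrays than on any other ESC array, and the fitted difference from scrambled cells was -1.24 ± 0.28 (SE, limma adjusted p = 0.0168). The call was lost without either scrambled ESC array. After RA it read 6.0 and 5.39 on the scrambled arrays and 4.17, 4.35, 4.11 and 4.63 in KD1, with no overlap (fell by 1.38 ± 0.24 (SE), limma adjusted p = 0.00163). The 5 hairpins fell after RA in KD1 too, by 1.65 for Mir17 to 2.29 for Mir19b-1, each past the limma adjusted p threshold of 0.05. In KD2 ESCs none of the 5 passed it (limma adjusted p 0.0699 to 0.458): Mir17 read 7.60 and 6.25 in KD2 against 7.45 and 7.90 in scrambled cells. Hairpin and host probe sets may read the same transcript, so these 6 values are not independent.

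The shift was also read by level of expression. The 450 genes were divided by mean level into 3 groups of 150, and each group's median was set against that of all genes within the same range of levels. On KD2 replicate 1 the medians themselves were 0.390, 0.310 and 0.313 from the lowest to the highest group, with 82.7%, 75.3% and 74.0% of genes above the array's centre. On KD2 replicate 2 they were 0.054, 0.523 and 0.427. Set against genes of the same level, the order on KD2 replicate 1 was the other way. On KD2 replicate 1 the excess over genes of the same level was 0.211, 0.392 and 0.506 from the lowest to the highest group, and on KD2 replicate 2 it was 0.096, 0.486 and 0.367. On RA KD1 replicate 3 it was 0.203, 0.478 and 0.421, and on replicate 4 it was 0.149, 0.410 and 0.440. By this excess the lowest group was the least raised on each of these arrays, whereas by the median itself it was the most raised on KD2 replicate 1. On the ESC KD1 arrays and RA KD1 replicates 1 and 2 the excess lay between -0.035 and 0.072 in every group.

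Single genes of chromosome 14 were compared in a limma model of all 12988 genes, with adjusted p under 0.05 as the call. In ESC KD2 against scrambled, 55 of the 450 were called higher (2.88% of all genes tested) and 1 lower (7.15% of all genes). Every array of KD2 read above both scrambled arrays for 191 genes (18.4% of all genes) and below both for 32 (22.2% of all genes). In ESC KD1, 2 were called higher (0.909% of all genes) and 0 lower (1.41% of all genes). With an unadjusted p under 0.05, for which no share of all genes is given here, limma had 15 higher and 14 lower in KD1. Both KD1 arrays were above the scrambled arrays for 116 (25.5% of all genes) and below for 119 (27.2% of all genes). KD2 against KD1 gave 18 higher (0.508% of all genes) and 0 lower (2.19% of all genes). At an unadjusted p under 0.05 in limma, 122 were higher and 9 lower in that comparison. These counts are what the choice of the chromosome rests on, and nothing further is read from them.

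The calls in KD2 depended on single arrays. Without KD2 replicate 1 the 55 became 167, without replicate 2 they became 89, without scrambled replicate 1 they were 27 and without scrambled replicate 2 they were 8. The 1 lower gene became 20 and 15 without KD2 replicate 1 and 2, 0 without scrambled replicate 2, and 2 without either RA scrambled array. Of the 56 genes called, 55 were still called without KD2 replicate 1 and 47 without KD2 replicate 2. Each such fit leaves 1 array in a group, which is assumed to vary like the other groups, so these counts do not show stability. The share of all genes called in each fit is not given here. A change in chromosome 14 calls therefore cannot be told from a change in all calls. The 18 genes higher in KD2 than in KD1 were 169 and 51 without KD2 replicate 1 and 2, 1 and 0 without KD1 replicate 1 and 2, and 5 to 9 without any other array, or without RA KD1 replicates 3 and 4 together. The 0 lower became 24 and 10 without KD2 replicate 1 and 2. In KD1 the 2 higher genes were 0 without KD1 replicate 1, 1 without KD1 replicate 2, 0 without scrambled replicate 2 and 8 without either or both KD2 arrays, while the 0 lower became 13 without either or both of these and 1 without scrambled replicate 1.

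Kcnma1, which encodes the pore of a calcium-activated potassium channel, had the highest difference on the chromosome in KD2 cells. It read 2.88 and 3.09 (log2) on the scrambled ESC arrays, 2.75 and 3.01 in KD1, and 7.37 and 9.14 in KD2. After RA it read 3.08 and 2.75 on the scrambled arrays and 3.05, 2.84, 6.46 and 5.94 on the KD1 arrays. It was high on the arrays that carry the chromosome 14 shift and below the level used to call a gene measurable on the other 8. The order of levels was KD2 replicate 2, KD2 replicate 1, RA KD1 replicate 3 and RA KD1 replicate 4, and the remaining arrays, 2.75 to 3.09, did not differ beyond the spread of the scrambled arrays. Kcnma1 was kept among the 450 genes only through these 4 arrays, so its difference is a description with no test. Against the measurable level in scrambled ESCs, 4.57, the KD2 mean of 8.25 was at least 3.68 log2 units, or at least 12.9-fold, higher. The array has a second probe set named Kcnma1, which read 3.23 and 3.59 in scrambled ESCs, 3.30 and 3.53 in KD2, and 3.35 and 3.51 on RA KD1 replicates 3 and 4. The high values thus rest on 1 of 2 probe sets, and with the mean of both the fitted difference of KD2 from scrambled cells was 2.64 in place of 5.27. Kcnma1 is gene 53 of 450 along the chromosome. Its neighbours did not follow it in size: Zfp503, on one side, read 0.08 and 0.19 above the scrambled mean on the KD2 arrays, and Dlg5, on the other, read 0.85 and 1.03.

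The promoter of Kcnma1 is shown because no other member differed as much, with that of Bmp4 for comparison, in both of which CG dinucleotides are in capitals (the letters CG, the same on both strands). Each window runs from 250 bases before to 50 after the start of the gene (RefSeq, GRCm38.p6, minus strand for both, chr14:24004156-24004455 for Kcnma1 and chr14:46390620-46390919 for Bmp4).
Kcnma1: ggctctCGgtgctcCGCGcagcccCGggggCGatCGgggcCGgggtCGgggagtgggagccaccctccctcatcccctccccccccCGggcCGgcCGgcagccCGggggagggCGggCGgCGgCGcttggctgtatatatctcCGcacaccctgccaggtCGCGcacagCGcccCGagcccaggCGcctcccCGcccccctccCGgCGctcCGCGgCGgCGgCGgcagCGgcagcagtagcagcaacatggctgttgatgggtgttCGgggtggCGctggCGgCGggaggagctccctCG
Bmp4: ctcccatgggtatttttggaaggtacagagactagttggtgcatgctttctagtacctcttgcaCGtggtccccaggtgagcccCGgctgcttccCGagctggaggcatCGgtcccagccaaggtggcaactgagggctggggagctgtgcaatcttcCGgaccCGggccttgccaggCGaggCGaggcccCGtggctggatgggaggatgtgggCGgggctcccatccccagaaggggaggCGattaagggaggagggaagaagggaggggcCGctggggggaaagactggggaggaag
The Kcnma1 window holds 36 CG and is 78.0% G and C, and the Bmp4 window holds 12 and is 64.0%. At least 1 CG stands in 94.2% of all 27025 promoters of the table, with a median of 7 over all of these and of 21 over both the 334 chromosome 14 genes with a promoter in the table and the 10310 tested genes with one. Genes with more than 21 CG (162 genes) had a median shift of 0.372 and 0.371 on the KD2 arrays, and the other 172 had 0.323 and 0.225. On RA KD1 replicates 3 and 4 the values were 0.375 and 0.409 against 0.339 and 0.292. The shift was present in genes of either kind of promoter.

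Among the other chromosome 14 genes, Eaf1 (r = 0.986), Lrch1 (0.962) and Rnf31 (0.910) followed Kcnma1 most closely over the 12 arrays. The measure was Pearson's r on log2 values, as a description. Over all tested genes, Phyhip (0.913, no chromosome in the annotation) and Wdtc1 of chromosome 4 (0.912) came before Rnf31. The 12 points share libraries and the 4 high arrays set the coefficient. Eaf1, an elongation factor partner, read 7.95 and 8.0 in scrambled ESCs, 8.01 and 8.08 in KD1 and 8.55 and 8.70 in KD2. After RA it read 8.04 and 8.03 in scrambled cells and 8.03, 7.99, 8.40 and 8.46 in KD1. The 4 arrays with high Kcnma1 were the 4 highest for Eaf1, at a difference below 1 log2 unit. Rnf17, a Tudor-domain gene of the germline, read 6.81 and 6.91 in scrambled ESCs, 6.92 and 6.98 in KD1, 8.10 and 8.37 in KD2, 6.26 and 6.24 in RA scrambled cells and 6.35, 6.20, 7.12 and 7.19 in RA KD1 cells. Within each state, the arrays with the shift were again its highest.

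**Figure D4:**
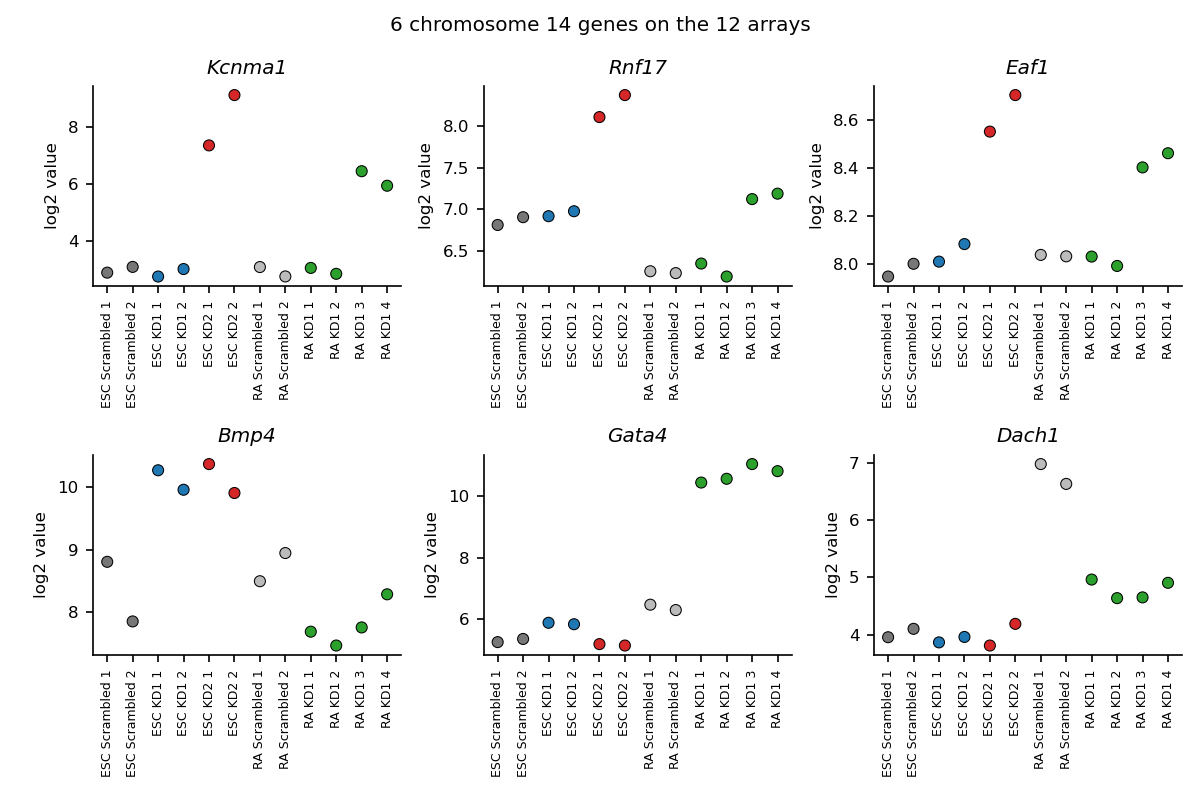
Log2 values of 6 chromosome 14 genes on each of the 12 arrays, coloured by group, with a separate vertical axis for each gene that does not start at 0. Kcnma1, Rnf17 and Eaf1 are high on both KD2 arrays and on RA KD1 replicates 3 and 4, whereas Gata4 is high and Dach1 low on all 4 RA KD1 arrays against the RA scrambled arrays, and Bmp4 is high on all 4 ESC knockdown arrays.

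The 18 tested genes of the list of signalling ligands, receptors and feedback genes had a median of 0.541 on KD2 replicate 1, where 15 lay above the array's centre, and of -0.384 on KD2 replicate 2, where 7 did. On RA KD1 replicates 1 to 4 it was -0.112, -0.131, 0.114 and 0.113. Bmp4 read 8.81 and 7.86 in scrambled ESCs, 10.27 and 9.96 in KD1 and 10.37 and 9.91 in KD2, so that all 4 knockdown arrays were above the scrambled ones. It was higher by 1.78 ± 0.33 (SE) in KD1 (limma adjusted p = 0.0189) and by 1.81 ± 0.33 in KD2 (limma adjusted p = 0.00623), and both comparisons share the scrambled arrays. After RA, Bmp4 read 8.50 and 8.95 in scrambled cells and 7.69, 7.47, 7.76 and 8.29 in KD1, and fell by 0.92 ± 0.29 (SE, limma adjusted p = 0.0377). The KD1 call was lost without either KD1 array or without scrambled replicate 2. Bmp4 was the 1 gene of the list called higher in KD1 (0.909% of all genes) or KD2 ESCs (2.88% of all genes). The list had 0 called lower (1.41% and 7.15% of all genes). Spry2, an inhibitor of receptor tyrosine kinase signalling, had 8.50 and 8.48 in scrambled ESCs and 9.76 and 9.91 in KD2, with a limma adjusted p of 0.109. After RA it read 7.14 and 7.62 in scrambled cells and 7.31, 7.38, 8.89 and 8.86 in KD1, high on the 4 arrays that carry the shift. In that comparison 4 genes of the list rose (11.2% of all genes), among them Fgf14 (1.08 ± 0.24) and the membrane protein gene Gpr180 (1.18 ± 0.22). Another 4 fell (11.5% of all genes), among them the endothelin receptor Ednrb (-1.90 ± 0.18) and the Wnt receptor Fzd3 (-1.31 ± 0.33).

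Mmrn2, an extracellular matrix gene of blood vessels, was the other gene called in KD1 ESCs (1.59 ± 0.30, limma adjusted p = 0.019), a call lost without KD1 replicate 1 or without either scrambled array. It read 5.74 and 5.55 in scrambled cells, 7.58 and 6.89 in KD1 and 8.31 and 7.79 in KD2, with no overlap between groups. The peptide transporter gene Slc15a1 read 5.49 and 5.22 in scrambled ESCs, 7.58 and 6.83 in KD1 and 8.45 and 6.30 in KD2, and was called in KD2 (2.02 ± 0.50, limma adjusted p = 0.0255). The difference was 0.94 without KD2 replicate 1 and 3.09 without replicate 2, and the call was lost without either scrambled ESC array and without RA KD1 replicates 3 and 4 together. Its KD1 arrays were also above both scrambled arrays, and the KD2 values lay on either side of them. Lgals3, which encodes a galectin, lay 0.90 and 1.27 above the scrambled mean on the KD2 arrays, relative to each array's centre. Of 16 tested genes of transport, matrix and cytoskeleton, 3 rose in KD2 (2.88% of all genes), namely Mmrn2, Slc15a1 and Lgals3. In this list 0 fell (7.15% of all genes). Other genes with large differences in KD2 against scrambled were Sdr39u1, which read 5.29 and 4.63 in scrambled ESCs and 6.43 and 7.01 in KD2, and the diacylglycerol kinase gene Dgkh, which read 7.80 and 7.70 in scrambled ESCs and 9.67 and 8.39 in KD2. The transglutaminase gene Tgm1 was higher by 1.75 ± 0.37. Tgm1 read 7.20 and 6.02 in scrambled ESCs, 7.75 and 7.21 in KD1 and 8.13 and 8.59 in KD2, so that the scrambled arrays differed from each other by more than those of KD2.

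Developmental transcription factors on the chromosome were mostly not called in ESCs. Of the 14 tested, 3 rose in KD2 against scrambled (2.88% of all genes) and 0 fell (7.15% of all genes). The 3 were Sox21 (1.65 ± 0.25), Klf5 (1.30 ± 0.32), which supports ESC self-renewal, and Tsc22d1 (0.82 ± 0.14). On KD2 replicates 1 and 2, Klf5 lay 1.36 and 1.30 and Tsc22d1 0.85 and 0.84 above the scrambled mean, relative to each array's centre. Sox21 read 6.12 and 5.77 in scrambled cells, 6.55 and 6.90 in KD1 and 7.36 and 7.83 in KD2. Its KD1 arrays lay between the other groups. The list's median was 0.12 in KD2 against scrambled, beside 0.27 for the 450 genes and -0.02 for all genes.

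After RA, genes of cell division and of chromatin both read higher on KD1 replicates 3 and 4 than on replicates 1 and 2. The chromatin list was the lower on each of these arrays. Of 16 tested cell division genes, 5 rose in KD2 ESCs (2.88% of all genes and 12.2% of the 450) and 0 fell (7.15% of all genes). Those that rose included Rb1, the retinoblastoma gene (1.19 ± 0.21), and Wapl, which releases cohesin (1.20 and 0.70 on KD2 replicates 1 and 2). Rb1 read 5.92 and 6.41 in scrambled ESCs, 6.46 and 6.30 in KD1 and 7.53 and 7.18 in KD2. The list's median per array was 0.422 and 0.715 in KD2, 0.113 and 0.097 in KD1, and -0.032, 0.101, 0.333 and 0.414 on RA KD1 replicates 1 to 4. Of 23 chromatin, DNA repair and RNA processing genes, 3 rose in KD2 (2.88% of all genes) and 0 fell (7.15% of all genes). Kat6b, a histone acetyltransferase gene, was among those that rose (1.24 and 0.96 on KD2 replicates 1 and 2). The chromatin list's median was 0.316 and 0.335 in KD2 ESCs. After RA it was -0.258, -0.134, 0.138 and 0.165 for KD1 replicates 1 to 4.

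The housekeeping list (metabolism, proteasome and transport, 27 tested) differed between the KD2 arrays. Its median was 0.035 on KD2 replicate 1, where 14 of 27 lay above the array's centre, and 0.331 on KD2 replicate 2, where 21 did. On the RA KD1 arrays it was 0.107, 0.133, 0.485 and 0.516. Glud1, the mitochondrial glutamate dehydrogenase gene, was the 1 called in KD2 (0.81 ± 0.20), where 2.88% of all genes were called higher. It read 10.61 and 10.80 in scrambled ESCs, 10.83 and 10.63 in KD1, and 11.31 and 11.71 in KD2. Tpt1, which encodes a growth-related tumour protein found in most cells, read 11.51 and 11.52 in scrambled ESCs and 11.19 and 11.96 in KD2, 1 array on each side. Among 6 germline genes, Rnf17 (1.38 and 1.43 on KD2 replicates 1 and 2) and Piwil2 (0.76 and 1.54) rose in KD2 (2.88% of all genes). The list median of 10 ion channel, neuronal and adhesion genes was -0.22. Of these only Kcnma1 passed the threshold, but it was kept only through the arrays where it is high. Its call is therefore not read as a test.

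After RA, 70 of the 450 genes were called higher in KD1 than in scrambled cells (11.2% of all genes) and 34 lower (11.5% of all genes). Every KD1 array was above both scrambled arrays for 158 (26.5% of all genes) and below for 67 (27.5% of all genes). The 70 were 44 and 45 without KD1 replicate 3 and 4, 25 without both, 31 and 24 without scrambled replicate 1 and 2, and 116 without either or both ESC KD2 arrays. The 34 were 18 and 21 without scrambled replicate 1 and 2. Without KD1 replicates 3 and 4 together, 54 of the 104 genes were still called. For these fits too, the share of all genes called is not given, so the counts cannot be read as changes of chromosome 14 alone.

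The 2 members with the highest differences after RA, Gata4 and Sox7, were high on all 4 KD1 arrays, and highest on the 2 that carry the shift. Gata4 read 6.47 and 6.30 in scrambled cells and 10.45, 10.57, 11.05 and 10.82 in KD1, a difference of 4.33 ± 0.17 (SE, limma adjusted p = 4.92e-08) and of 4.12 without replicates 3 and 4. Sox7 read 5.02 and 5.08 in scrambled cells and 8.58, 8.69, 10.32 and 10.01 in KD1 (4.35 ± 0.42, limma adjusted p = 2.2e-05). All 4 KD1 arrays were far above the scrambled arrays, with replicates 3 and 4 the highest, and the difference was 3.59 without them. Of the 14 transcription factors, 5 rose (11.2% of all genes), also Elf1 (2.19 ± 0.20), Klf5 (1.88 ± 0.28) and Sox21 (1.02 ± 0.21), and 4 fell (11.5% of all genes).

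The genes that fell included Dach1, a homologue of fly dachshund, which read 6.98 and 6.64 in scrambled cells and 4.96, 4.64, 4.65 and 4.91 in KD1 (fell by 2.02 ± 0.17, limma adjusted p = 6.65e-06). The neural genes Zic2 (-1.59 ± 0.20) and Zic5 (-1.18 ± 0.27) and the Klf family member Klf12 (-1.54 ± 0.26) also fell. Gjb2, a gap junction gene, read 7.77 and 7.66 in scrambled cells and 5.42, 6.70, 5.09 and 5.19 in KD1 (fell by 2.12 ± 0.35, limma adjusted p = 0.00118), and by 1.66 without replicates 3 and 4. The neurofilament gene Nefl went the other way, from 5.38 and 5.24 to 7.10, 7.44, 7.47 and 7.78 (2.14 ± 0.30). Among 16 transport, matrix and cytoskeleton genes 3 rose (11.2% of all genes), among them clusterin (Clu, 1.86 ± 0.32). In this list 1, Farp1, fell (-1.20 ± 0.22, beside 11.5% of all genes).

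The scrambled arrays of both states give a comparison for differentiation itself, one that the choice of the chromosome did not use, although these arrays served as its references. RA scrambled against ESC scrambled had 87 chromosome 14 genes higher (22.4% of all genes) and 67 lower (16.7% of all genes), and 42 lower without RA scrambled replicate 2. The median difference of chromosome 14 less that of all genes was -0.012, and over the other autosomes it ran from -0.046 to 0.071. The chromosome as a whole thus lay within the range of the others. Rarb rose from 4.16 and 4.62 to 8.76 and 9.18 (4.57 ± 0.28, limma adjusted p = 7.35e-07), and the meiotic cohesin gene Rec8 from 5.18 and 5.40 to 9.28 and 9.44 (4.07 ± 0.43, limma adjusted p = 2.53e-05). Otx2 fell from 8.43 and 8.73 to 4.23 and 4.07 (by 4.43 ± 0.36, limma adjusted p = 4.61e-06), and the amino acid transporter gene Slc7a7 from 9.37 and 9.86 to 5.34 and 4.36 (by 4.77 ± 0.35, limma adjusted p = 2.44e-06). The RA values of Otx2, the lower RA value of Slc7a7 and the lower ESC value of Rarb lay below the measurable level (4.46 to 4.63). The sizes of these differences are therefore uncertain. The 6 tested Mir17hg cluster transcripts fell as well, with a difference of -2.44 ± 0.28 for Mir17hg (limma adjusted p = 4.64e-05).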

How the data were processed

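RNA of 12 samples was hybridised to Affymetrix arrays. Per the submitters' processing notes, the authors used RMA, and the deposited values are log2 expression per probe set (1.74 to 13.57), with no further settings stated. Of 35556 probe sets, 21789 have exactly 1 gene symbol in GEO's platform annotation, 1621 have several and 12146 are not listed there. The probe set with the highest mean stood for a gene, and this chose among several for 32 of the 450 genes. Chromosome and gene order come from the RefSeq table for GRCm38.p6 by Entrez identifier, and 33 tested genes have no chromosome in it. The sources used here do not give the build behind the deposited values. Coordinates are given only for promoter windows, from RefSeq.

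A difference is a gene's log2 value minus the scrambled mean of its state, minus the median of all tested genes on that array. Comparisons used limma 3.58.1 in R 4.3.3, with group means over all 12 arrays (7 residual and 4.58 prior degrees of freedom), moderated variances and Benjamini-Hochberg adjustment over 12988 genes, and the script was tested on simulated data. The members, lists and comparisons were chosen with earlier results of these data known. Named genes are Kcnma1, up to 10 called genes each way per comparison, members of role lists, and segment ends; predicted genes and small RNAs were left out, with Mir17hg's cluster as the exception. The number of arrays limits the precision. Alternatives are another filter, all probe sets of a gene, other scalings, weights and references, a stricter p, a replicate block, and leaving out arrays. Replicate numbers were not shown to pair arrays.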

Additional observations from a re-analysis of the deposited data

Results flagged for a closer look

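In RA KD1 cells, Zic2, a zinc finger gene of neural development, read 5.20 on 1 array and 5.02 to 5.04 on the other 3, so that 1 array stood apart from a tight group. It was the 1 of 52 members or values looked at in that group of 4 arrays, and chance alone gives about 1 in 20. All 4 values lay below those of the RA scrambled arrays, 6.76 and 6.57.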

How the results depend on the processing

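No called value changed direction under the alternatives tried. In ESC KD2 the shift, 0.311 in the report, was 0.131 with no filter on dim genes, 0.391 for genes above the limit on all 12 arrays, 0.376 as a mean and 0.263 against all other arrays of the state; without either array it was 0.282 to 0.340. The shift in ESC KD1 was -0.134 against all other arrays of the state, which then include KD2, and -0.014 to 0.020 without either array. In RA KD1, 0.198 in the report, it was 0.076 with no filter, 0.076 against all other arrays of the state and 0.037 to 0.255 with arrays left out. Kcnma1 with the mean of both its probe sets was 2.64 above scrambled cells in KD2 and 2.74 above KD1, in place of 5.27 and 5.37. Counts of called genes depended on the test more than the shift did. The share of all genes called under each alternative is not given here. In ESC KD2 against scrambled, the 55 higher were 14 at an adjusted p under 0.01, 0 with array weights (0.137 for each KD2 array), 0 with only the arrays compared, 33 with a replicate block and 8 to 167 with arrays left out. The 1 lower was 2 with no filter, 0 with the filter on all 12 arrays, at 0.01, with array weights and with only the arrays compared, and 0 to 20 with arrays left out. In KD2 against KD1, the 18 higher were 1 at 0.01, 0 with array weights, 0 with only the arrays compared, 4 with a replicate block, 5 without RA KD1 replicates 3 and 4 together and 0 to 169 with arrays left out; the 0 lower were 0 to 24. In KD1, the 2 higher were 0 at 0.01, 9 with array weights, 0 with a replicate block and 0 to 8 with arrays left out, and the 0 lower were 13 with array weights, 1 with cyclic loess, 1 with an intensity trend, 3 with only the arrays compared and 0 to 13 with arrays left out. In RA KD1, the 70 higher were 30 at 0.01, 144 with array weights, 24 with a replicate block, 25 without RA KD1 replicates 3 and 4 together (chosen after seeing the data) and 24 to 116 with arrays left out, and the 34 lower were 21 with the filter on all 12 arrays and 18 to 43 with arrays left out. RA scrambled against ESC scrambled gave 60 to 112 higher and 42 to 91 lower with arrays left out, and 123 and 88 with only the arrays compared. In the block, RA KD1 replicates 3 and 4 have a level of their own and add nothing. Deviations of same-numbered arrays correlated between -0.183 and 0.243 over 20 pairs, so the numbers are not shown to pair the arrays. List medians turned sign with the scaling for 4 lists in RA scrambled against ESC scrambled and for the germline list in ESC KD1, none of which the report gives. Unless stated, the cause of these changes was not tested.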
